A study of Mus musculus with 6 samples.

Results

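Matrix metalloproteinases and their tissue inhibitors, the TIMPs, were followed in mouse embryonic fibroblasts in which CRISPR/Cas9 had been aimed at Zmat3, which p53 induces and whose product binds RNA through zinc fingers. The 10 genes described are those whose symbol in the expression table was Timp1, Timp2, Timp3, Mmp2, Mmp3, Mmp9, Mmp10, Mmp11, Mmp13 or Mmp14, out of 27179 rows, and each symbol matched 1 row. The 6 RNA sequencing libraries fell into 2 groups. The Zmat3 knockout group had 3 libraries, each from cells with a guide RNA of its own against Zmat3 (guides 52.6, 51.5 and 54.8 for libraries 1, 2 and 3). The control group had 3 libraries, each with a different negative control guide, labelled EV, SPA and ACOCA. All cells of both groups carried Cas9, the adenoviral oncogene E1A and HrasG12V, an activated Ras allele. Guides came in by lentivirus, and after selection the cells were kept for 10 days before RNA was taken. Values are normalised read counts, which are reads assigned to a gene divided by 1 size factor per library, and n = 3 libraries per group unless stated.

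Metalloproteinases are zinc-dependent enzymes that cut collagens and other matrix proteins outside the cell or at its surface. Most are made as inactive precursors, and the TIMPs hold the active enzymes in check by binding to the catalytic site. In fibroblasts these genes are known for responding to Ras, growth factor and cytokine signals, in part through AP-1, the transcription factor made of Fos and Jun proteins.

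Zmat3 itself had 11421, 4912 and 4960 normalised counts in knockout libraries 1, 2 and 3, against 17169, 15868 and 17434 in control libraries 1, 2 and 3. The groups did not overlap, and knockout library 1 kept the most Zmat3 transcript of its group. DESeq2 called Zmat3 lower (log2 fold change -1.24, adjusted p = 0.0444), and limma did not (-1.36, adjusted p = 0.371). Control library 3 stood apart from the other libraries on the first principal component, which held 59.4% of the variance, and had a mean correlation of 0.941 with the others, against 0.969 to 0.975 for the rest. Fold changes of the 10 genes are therefore also given without it. Of the fibroblast markers, Vim (151022 to 184481 in knockout libraries and 150396 to 195037 in controls), Pdgfrb and Twist1 were plentiful. Lum was at 0 in every library, Col1a2 had at most 7.28 normalised counts in knockout libraries and 14.2 in controls, and Thy1 at most 5.42 and 2.36. The epithelial markers were mixed. Epcam was plentiful, at 19711 to 25182 in knockout libraries and 3574 to 24986 in controls. Krt19 ran from 2674 to 4210 in knockout libraries and 1198 to 2864 in controls, and Krt18 reached 8675 in control library 3. Krt5 was at 0 in every library. Krt8 had at most 4.62 normalised counts in knockout libraries and 30.7 in controls, and Cdh1 at most 213.3 and 146.8. Depth ran from 53253055 to 90256118 reads per library.

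All 10 genes passed the filter on low values, each with at least 10 normalised counts in at least 5 of the 6 libraries. The test was limma on log2(value + 1) across 14777 genes, which called 0 genes at a false discovery rate of 0.05 (0% of all tested genes), so none of the 10 genes was called. An unadjusted p under 0.05 was found for 1948 genes over the whole table, 5 of the 10 described here among them. Run on whole reads recovered from the table, edgeR called 0 genes as well, and 1943 had an unadjusted p under 0.05. DESeq2 called 129 of 14475 genes (0.891%), and again none of the 10. With 3 libraries against 3, the smallest p an exact two-sided permutation test can give is 0.1.

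Short stretches of sequence show a feature that divides the genes whose promoter sequence was available. The 120 bases before the annotated start of Mmp3, Mmp10 and Mmp13, neighbours in a metalloproteinase cluster on chromosome 9, hold an AP-1 motif and a TATA box. The same stretch of Timp3 holds neither. Timp1 has a variant AP-1 motif just inside its first exon. The AP-1 motif searched was TGAGTCA or its reverse complement TGACTCA. The variant was TGAGTAA or TTACTCA, and the TATA box TATAAA or TTTATA, all without overlap between motifs. Sequences are RefSeq's on GRCm38 and run along the strand of the gene, which is the plus strand for all 5. Capitals mark the motifs.
Mmp3 (chr9:7445702-7445821): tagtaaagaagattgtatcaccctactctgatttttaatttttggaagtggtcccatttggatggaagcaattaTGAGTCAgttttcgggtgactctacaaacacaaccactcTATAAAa
Mmp10 (chr9:7502222-7502341): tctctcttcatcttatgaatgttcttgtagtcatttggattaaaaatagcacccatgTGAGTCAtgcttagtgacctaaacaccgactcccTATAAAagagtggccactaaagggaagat
Mmp13 (chr9:7272394-7272513): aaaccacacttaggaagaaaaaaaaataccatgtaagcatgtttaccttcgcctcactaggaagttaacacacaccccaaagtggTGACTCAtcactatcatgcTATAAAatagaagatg
Timp1, bases 17 to 43 of the transcript (chrX:20870182-20870208): ggtgggtggaTGAGTAAtgcgtccagg
Timp3 (chr10:86300292-86300411): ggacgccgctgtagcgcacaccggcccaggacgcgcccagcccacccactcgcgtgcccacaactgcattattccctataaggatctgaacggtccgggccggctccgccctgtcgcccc

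Over windows of 250 bases before to 50 bases after the start, the AP-1 motif was present in 5.20% of 32851 mouse promoters, the variant in 2.68% and the TATA box in 13.6%. Of the 10 genes, Mmp2 and Mmp9 had no promoter sequence available, so they were not searched. Among the other 8, the AP-1 motif was found in Mmp3, Mmp10 and Mmp13 alone. The windows of Timp2, Timp3, Mmp11 and Mmp14 held none of the 3 motifs and were richer in G and C, at 68.7%, 67.0%, 67.0% and 56.0%, than those of Mmp3, Mmp10 and Mmp13, at 37.7% to 43.7%. A match describes letters in a window and not a bound site.

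**Figure D1:**
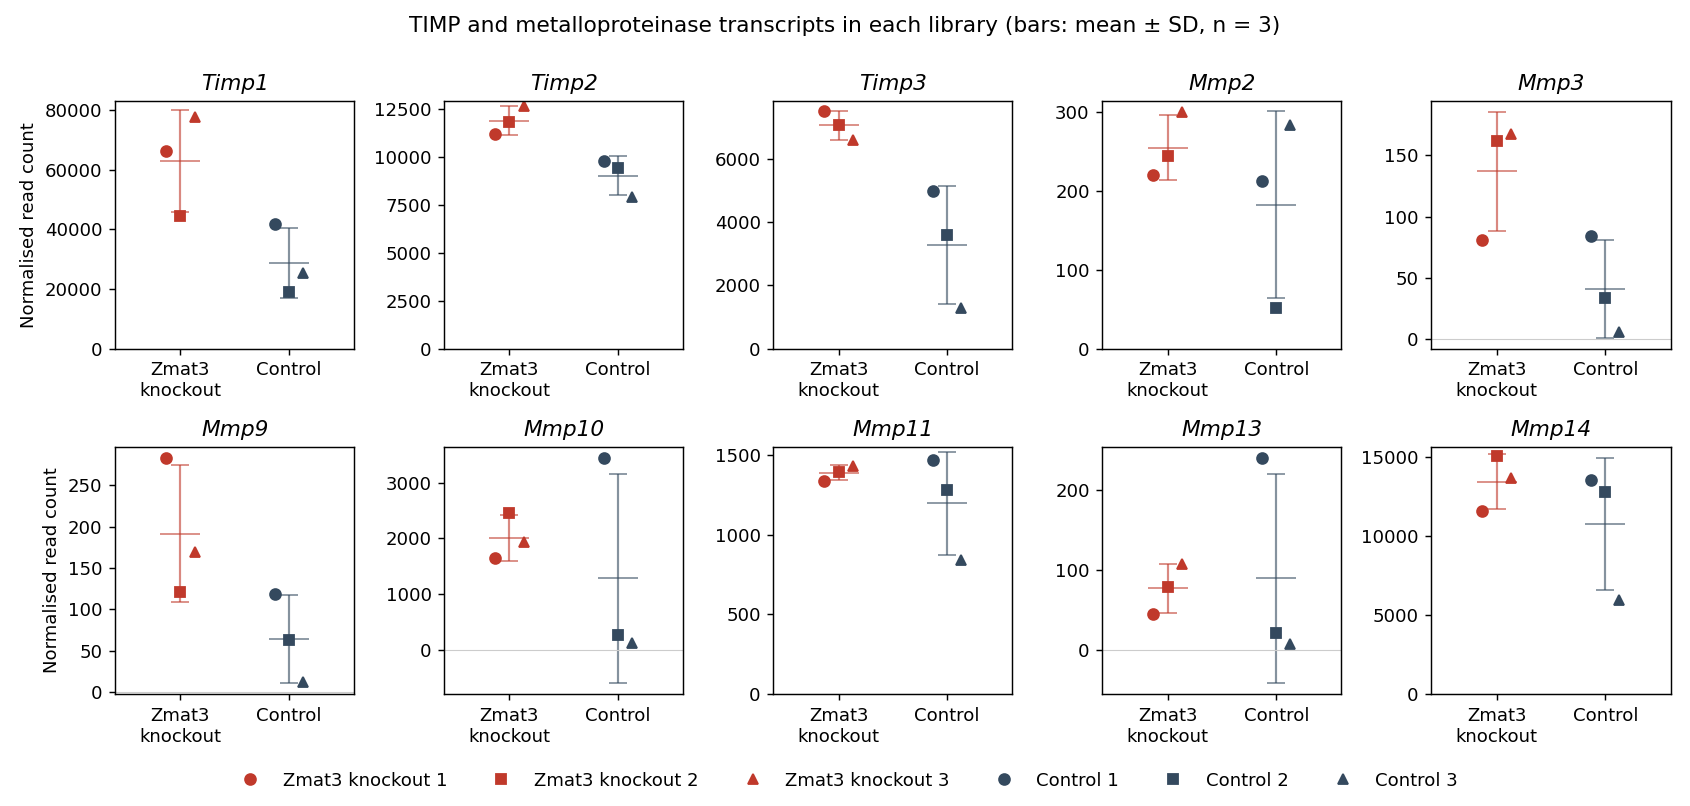
Normalised read counts (y axes, linear, 1 panel per gene) of the 10 genes in the 3 Zmat3 knockout and 3 control libraries; symbols mark library numbers, and bars give the mean ± SD (n = 3). Timp1, Timp2, Timp3 and Mmp9 have every knockout library above every control library, while control library 1 is highest for Mmp10, Mmp11 and Mmp13.

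Positions of genes are RefSeq's on GRCm38. The 3 TIMP transcripts stood higher in every Zmat3 knockout library than in any control library, although none was called. Timp1 (chrX:20870166-20874737, plus strand), a secreted inhibitor of most soluble metalloproteinases, had 66469, 44362 and 77839 normalised counts in knockout libraries 1, 2 and 3. Its control libraries 1, 2 and 3 had 41724, 19134 and 25491. The groups did not overlap, but knockout library 2 lay only 1.06-fold above control library 1. The means were 62890.1 ± 17023 in knockout and 28783 ± 11649 in control (SD, n = 3 each), a 2.18-fold higher knockout mean. The limma log2 fold change was 1.17 (SE 0.33, adjusted p = 0.371). Without control library 3 it was 1.12, so the limma estimate of Timp1 did not turn on that library. Without control library 2, the lowest control for Timp1, it was 0.91. By DESeq2 it was 1.13 (SE 0.34, adjusted p = 0.0725), and 1.04 (SE 0.49, DESeq2 adjusted p = 0.217) without control library 3.

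Timp3, which unlike the other TIMPs is held in the matrix and also inhibits several ADAM proteases, was even across the knockout libraries and uneven across the controls. Timp3 (chr10:86300412-86349505, plus strand) had 7504, 7079 and 6596 normalised counts in knockout libraries 1, 2 and 3, against 4979.6, 3595 and 1277 in control libraries 1, 2 and 3. The highest knockout library was 1.14-fold above the lowest, whereas the control libraries spanned 3.90-fold. Every knockout library was at least 1.32-fold above control library 1, the highest control. The limma log2 fold change was 1.31 (SE 0.47, adjusted p = 0.371), and 0.74 (SE 0.15) without control library 3, which had the lowest value. Without that library DESeq2 called Timp3 higher (log2 fold change 0.71, adjusted p = 0.00186), the single call among the 10 genes in a fit where 2.62% of all genes were called higher.

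Timp2 (chr11:118301061-118355411, minus strand), which binds Mmp14 at the cell surface and there helps to activate Mmp2, differed least of the TIMPs. The knockout libraries had 11159.5, 11834 and 12662 normalised counts and the control libraries 9776, 9392 and 7887. Again the groups did not overlap, and control library 3 was lowest. The log2 fold change by limma was 0.40 (SE 0.12, adjusted p = 0.371) and 0.31 without control library 3. Timp4 had 4 reads in all libraries together and was not tested.

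Timp1 and Timp3 lie inside the synapsin genes Syn1 and Syn3, on the opposite strand. The exons of Timp1 share no base with Syn1 exons in the GENCODE annotation of GRCm38, while those of Timp3 share 1733 bases with Syn3 exons. No source used here gives the strand setting of the counting, so reads in those bases cannot be told apart. Syn3 had 284.7, 216.0 and 237.7 normalised counts in knockout libraries 1, 2 and 3, against 355.5, 197.7 and 272.6 in controls, below every value of Timp3. Mmp11 shares 155 exon bases with Chchd10, also on the opposite strand. Chchd10 had 607.3, 490.9 and 539.8 normalised counts in knockout libraries 1, 2 and 3, against 957.0, 610.6 and 328.0 in control libraries 1, 2 and 3. Its order was the same as that of Mmp11 over the controls but not over the knockout libraries, where Chchd10 was highest and Mmp11 lowest in library 1.

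Among the metalloproteinases, Mmp9 alone had every knockout library above every control library. Mmp9 (chr2:164940326-164955850, plus strand), a gelatinase best known from leukocytes and tumour stroma, had 282.9, 121.3 and 169.8 normalised counts in knockout libraries 1, 2 and 3. Control libraries 1, 2 and 3 had 118.2, 63.0 and 11.8, the last of these from 10 reads. Knockout library 2 and control library 1 differed by 1.03-fold. On the log2 scale limma gave 1.97 (SE 0.83, adjusted p = 0.371) and 1.05 (SE 0.44) without control library 3. Of the 12 macrophage and leukocyte markers, 3 passed the filter, and the summed level of the list was 7769 to 9888 in knockout libraries and 1289 to 6604 in controls, most of it from Cd68. Cd68 had 9236, 8035 and 7160 normalised counts in knockout libraries, against 5352, 6049 and 769 in controls (limma log2 fold change 1.47, and 0.51 without control library 3). Fcgr3, an Fc receptor gene of the same list, had 240.4, 129.4 and 128.6 in knockout libraries, against 111.9, 57.8 and 9.44 in controls (limma log2 fold change 1.96, and 0.97 without control library 3). Neither was called, and neither overlapped between groups. Cd14, the remaining tested marker, did not follow them. It stood at 443.2 ± 37.9 in knockout and 461.3 ± 24.1 in control (SD, n = 3 each), with overlap and a limma log2 fold change of -0.06. The leukocyte-defining genes Ptprc and Adgre1 had at most 2.31 and 0 normalised counts in knockout libraries and at most 8.26 and 4.72 in controls. The part of other cell types in the level of Mmp9 was not tested, and in bulk RNA a change in cell numbers cannot be told apart from a change per cell.

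Mmp2 (chr8:92827290-92853421, plus strand), the other gelatinase and a common product of fibroblasts, had 220.5, 244.9 and 300.8 normalised counts in knockout libraries 1, 2 and 3. The control libraries had 212.7, 52.0 and 284.4, so the groups overlapped. Control library 2, and not library 3, was the low one. The limma log2 fold change of Mmp2 was 0.78 (SE 0.62, adjusted p = 0.4997), 0.04 without control library 2 and 1.26 without control library 3. By DESeq2 it was 0.49 (adjusted p = 0.636).

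Mmp3, Mmp10 and Mmp13 lie together on chromosome 9. Mmp3 and Mmp10, the stromelysins, have broad substrates and can activate other metalloproteinases, and Mmp13 is a collagenase. Mmp3 (chr9:7445822-7455975, plus strand) had 81.3, 161.7 and 167.4 normalised counts in knockout libraries 1, 2 and 3, against 84.1, 33.7 and 5.90 in control libraries 1, 2 and 3, the last from 5 reads. Knockout library 1 lay just below control library 1, so the groups overlapped. The limma log2 fold change of Mmp3 was 2.26 (SE 0.90, adjusted p = 0.371), and 1.27 without control library 3.

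Mmp10 (chr9:7502342-7510242, plus strand) had 1641, 2460.4 and 1941 normalised counts in knockout libraries 1, 2 and 3. Control libraries 1, 2 and 3 had 3453, 260.6 and 125.1. Control library 1 was thus above every knockout library, and the other controls were far below. Limma gave a log2 fold change of 2.04 (SE 1.13, adjusted p = 0.392), 3.45 without control library 1 and 1.06 without control library 3. DESeq2 and edgeR, which compare means, gave 0.65 each (DESeq2 adjusted p = 0.801), and DESeq2 gave 0.17 without control library 2 and 0.11 without control library 3.

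For Mmp13 (chr9:7272514-7283333, plus strand) the knockout libraries 1, 2 and 3 had 45.2, 78.5 and 106.7 normalised counts. Its control libraries 1, 2 and 3 had 239.7, 21.2 and 7.08. The direction depended on the scale. The mean was lower in knockout (76.8 ± 30.8) than in control (89.3 ± 130.4; SD, n = 3 each), while limma on log2 values gave 1.06 (SE 1.19, adjusted p = 0.617). DESeq2 and edgeR, which compare means, gave -0.22 and -0.23. Without control library 3 the limma value was 0.0055.

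**Figure D2:**
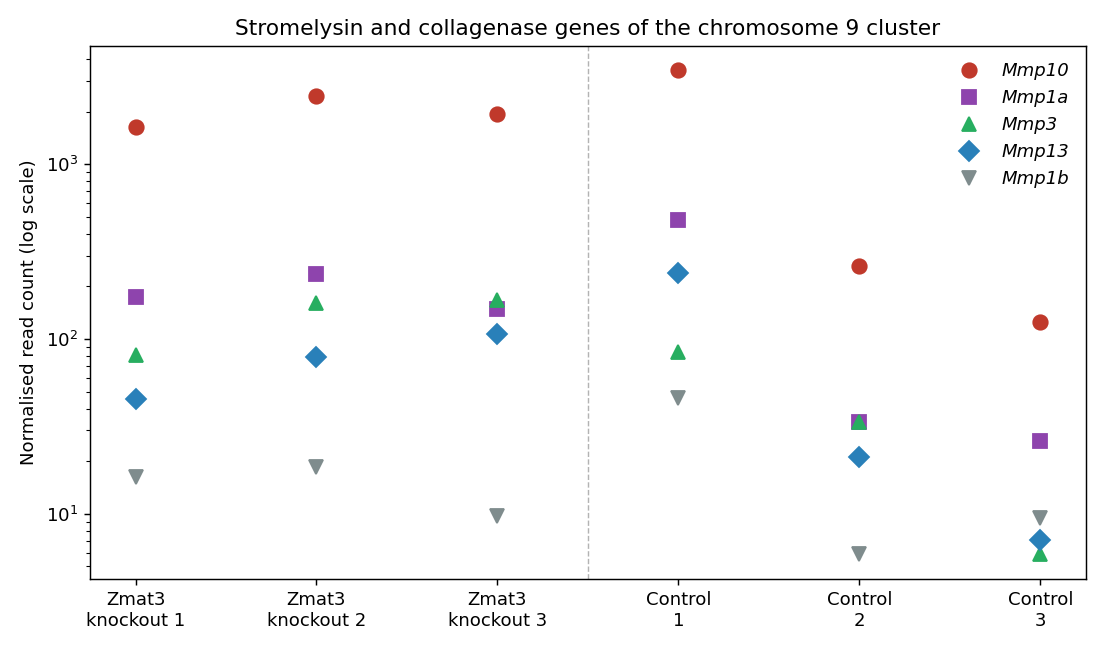
Normalised read counts (y axis, log scale) of the 5 tested genes of the chromosome 9 metalloproteinase cluster in each library, with the knockout libraries left of the dashed line. Control library 1 holds the highest value of Mmp10, Mmp1a, Mmp13 and Mmp1b, and the knockout libraries lie between it and the other controls for all 4.

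Control library 1 was also highest for 2 other genes of the cluster. Mmp1a, a mouse interstitial collagenase, had 173.5, 235.6 and 149.2 normalised counts in knockout libraries, against 480.9, 33.7 and 26.0 in control libraries 1, 2 and 3. Mmp1b, its close relative, had 16.3, 18.5 and 9.70 in knockout libraries, against 46.0, 5.86 and 9.44 in controls. Control library 1 was the highest of the 6 libraries for 4 of the 5 tested genes of the cluster, Mmp3 being the exception. The promoters of both Mmp1a and Mmp1b also hold the AP-1 motif and the TATA box. So does a promoter of Mmp7, which had 0 reads. A promoter of Mmp12, which had 24 reads over all libraries, holds the AP-1 motif before the start. Its TATA box lies after the start, at bases 5 to 10. Mmp3 and Mmp10 are related enough to share sequence. Of the distinct 50-base windows in their annotated transcripts, 8.39% of those of Mmp3 and 8.37% of those of Mmp10 also occur in another gene, so a small part of their reads may have been assigned to either or to neither.

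Mmp14 and Mmp11 had the smallest log2 fold changes of the 7 metalloproteinases. Mmp14 (chr14:54431598-54442456, plus strand), a membrane-bound collagenase that activates Mmp2, had 11614, 15088 and 13709 normalised counts in knockout libraries 1, 2 and 3, against 13547, 12805 and 5968 in control libraries 1, 2 and 3. Mmp11 (chr10:75923221-75932502, minus strand), a stromelysin activated inside the cell by furin, had 1337, 1393 and 1429 in knockout libraries, against 1468, 1278 and 840.1 in controls. For both genes control libraries 1 and 2 lay within or close to the knockout range and control library 3 well below it. Their limma log2 fold changes were 0.40 (SE 0.32, adjusted p = 0.495) for Mmp14 and 0.25 (SE 0.22, adjusted p = 0.536) for Mmp11, and 0.02 for each without control library 3.

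**Figure D3:**
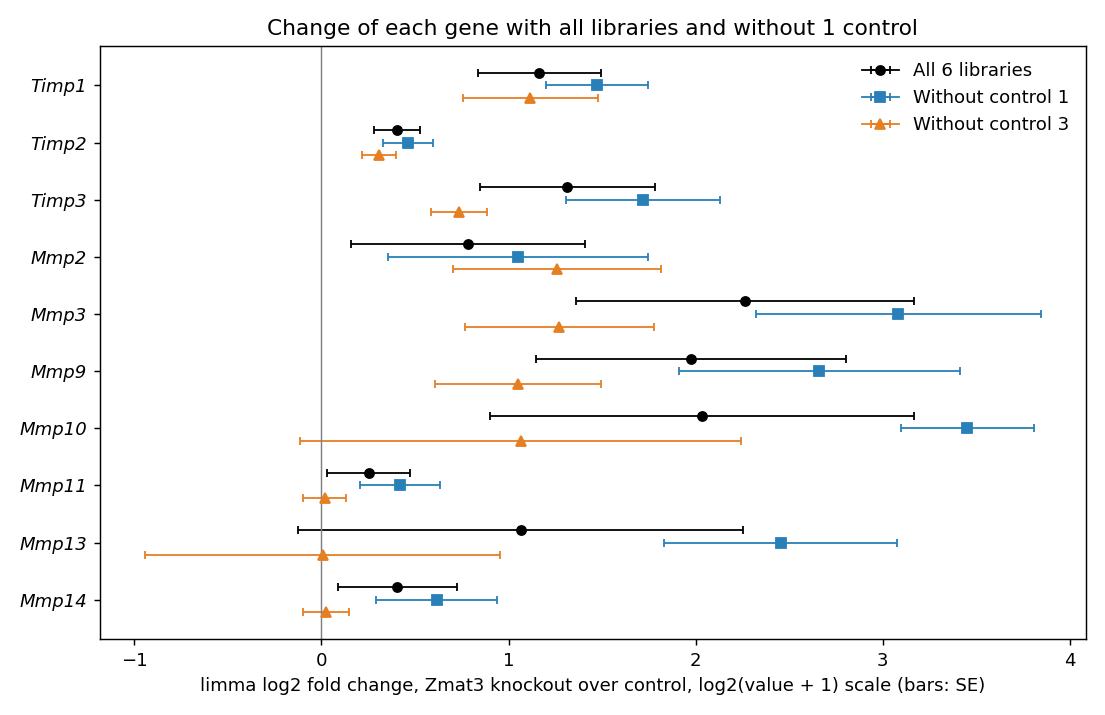
Limma log2 fold change (x axis, Zmat3 knockout over control, log2(value + 1) scale, bars SE) of each gene with all 6 libraries, without control library 1 and without control library 3. Timp1 and Timp2 move least between these fits, and Mmp11, Mmp13 and Mmp14 have values of 0.02, 0.0055 and 0.02 without control library 3.

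Counted over the 10 genes, 4 had knockout libraries wholly above the controls, 6 overlapped and 0 were wholly below. Over all 14777 genes 1946 (13.2%) were wholly above and 2121 wholly below. All 10 limma log2 fold changes were positive, also in each fit that left out 1 library, the lowest being 0.0055 for Mmp13 without control library 3. By DESeq2 9 of the 10 were positive. Over all tested genes 51.6% were positive by limma. These counts are a description, since the list was chosen with earlier results of these data known. Control library 3 was the lowest library for 8 of the 10 genes, the exceptions being Timp1 and Mmp2, for which control library 2 was lowest. The highest library of a group exceeded the lowest by more in control than in knockout for all 10 genes. The spans ran from 1.07-fold (Mmp11) to 2.36-fold (Mmp13) in knockout, and from 1.24-fold (Timp2) to 33.8-fold (Mmp13) in control.

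Without control library 1, the highest control for each of the 10 genes but Mmp2, DESeq2 called 2138 genes and 7.18% of all genes were called higher. Of the 10 genes, 6 were called, all higher in knockout. Mmp10 had a log2 fold change of 3.38 (DESeq2 adjusted p = 2.37e-17), Mmp3 of 2.75 (DESeq2 adjusted p = 0.00338), Mmp13 of 2.40 (DESeq2 adjusted p = 0.00987) and Mmp9 of 2.34 (DESeq2 adjusted p = 0.0113). Timp3 had 1.54 (DESeq2 adjusted p = 0.00367) and Timp1 1.499 (DESeq2 adjusted p = 3.89e-05). Limma called none of the 10 in any fit that left out 1 library.

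Divided by the exon length of the GENCODE annotation, levels can be set against each other. Timp1 was by far the most abundant per kilobase, at 70822 ± 19169.7 normalised counts per kilobase in knockout and 32414 ± 13119 in control (SD, n = 3 each). It made up 92.7% to 95.6% of the summed per-kilobase level of the 3 TIMPs in knockout libraries and 88.3% to 93.8% in control libraries. Timp2 followed with 3051 ± 193 per kilobase in knockout and 2315 ± 256 in control. Of the 7 metalloproteinases among the 10 genes, Mmp14 was the highest, at 2260.2 ± 294 in knockout and 1808 ± 701 in control. Below it came Mmp10, at 1169.6 ± 241 in knockout and 743.0 ± 1094 in control, then Timp3 at 867 ± 55.8 in knockout and 403 ± 230 in control, and Mmp11 at 499 ± 16.8 and 430.3 ± 116. In knockout these 6 genes kept this order in every library without overlap between neighbours. In control only Timp1 stood clear, and each pair of neighbours below it overlapped. Mmp3, Mmp2, Mmp9 and Mmp13 lay between 28.7 and 76.0 per kilobase in knockout and between 18.2 and 54.3 in control, with overlapping ranges.

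The make-up of the metalloproteinases differed between control libraries. Mmp14 took 54.3%, 54.0% and 54.6% of the summed per-kilobase level of the 7 metalloproteinases in knockout libraries 1, 2 and 3, against 45.1%, 76.2% and 68.1% in control libraries 1, 2 and 3. Mmp10 took 26.5%, 30.5% and 26.8% in knockout libraries, against 39.8%, 5.37% and 4.94% in controls. Control library 1 was therefore rich in Mmp10 and the other controls poor in it, with the knockout libraries close together in between.

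**Figure D4:**
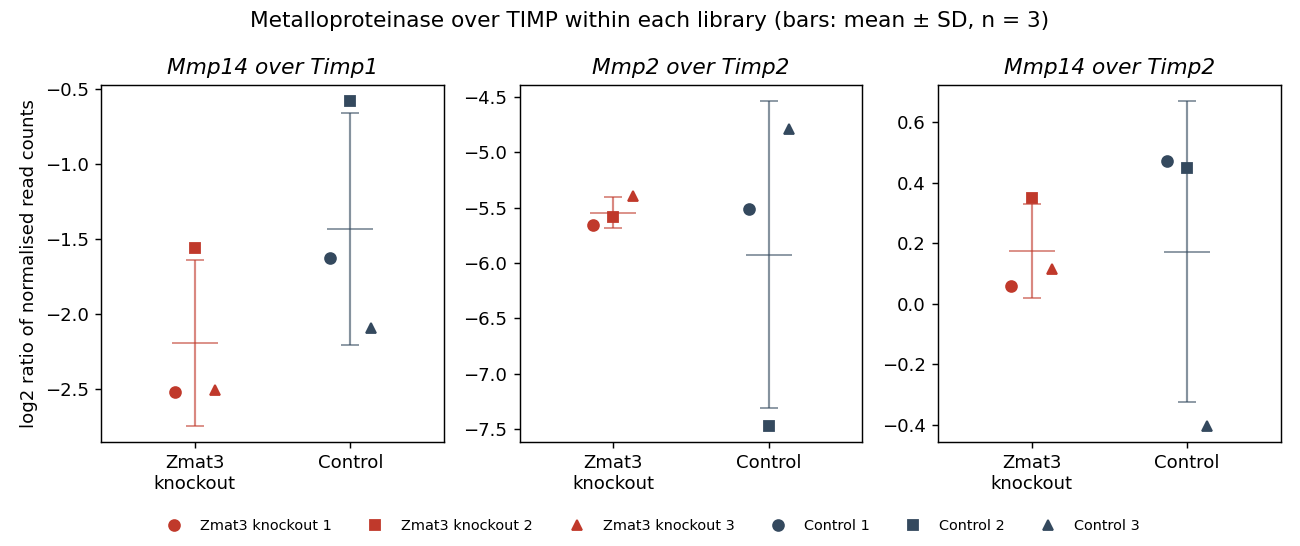
Log2 ratio of normalised read counts (y axes) of Mmp14 over Timp1, Mmp2 over Timp2 and Mmp14 over Timp2 within each library; symbols mark library numbers and bars the mean ± SD (n = 3). The groups overlap for all 3 ratios, and the knockout libraries lie closer together than the controls.

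A ratio of 2 genes within a library does not depend on its size factor. The log2 ratio of Mmp14 to Timp1 was -2.52, -1.56 and -2.51 in knockout libraries 1, 2 and 3, against -1.62, -0.58 and -2.09 in control libraries 1, 2 and 3. The groups overlapped, and the difference was -0.76 (SE 0.55, exact two-sided permutation p = 0.3). It was -0.33 without control library 2 and -1.09 without control library 3. Mmp2 over Timp2 differed by 0.38 (SE 0.80, exact permutation p = 0.9), with control library 2 at -7.47 and the other libraries between -5.65 and -4.79. For Mmp14 over Timp2, the membrane complex that activates Mmp2, the difference was 0.0023 (SE 0.30, exact permutation p = 1), and -0.28 (SE 0.12) without control library 3. Only in that library did Timp2 have more normalised counts than Mmp14. The ratios are not corrected for exon length, and per kilobase Timp2 was above Mmp14 in every library.

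Of the other metalloproteinases and Timp4, 9 of 17 passed the filter, and the remaining 8 had under 40 reads each over all libraries, Mmp7 being at 0. None of the 9 was called by limma or DESeq2, which gave Mmp1a no adjusted p. Positive log2 fold changes were found for 7, the median being 0.71, or 0.29 without control library 3. Over all tested genes the median was 0.01 and 51.6% were positive. Mmp25, a membrane-anchored enzyme known from neutrophils, had 1075.4, 748.5 and 545.8 normalised counts in knockout libraries, against 680.1, 346.3 and 31.9 in controls, and Mmp19 had 806, 1017 and 1238 against 898, 753 and 94.4. Both overlapped between groups and were lowest in control library 3, without which their log2 fold changes were 0.65 for Mmp25 (1.94 with all libraries) and 0.29 for Mmp19 (1.33 with all libraries). Mmp15 (limma log2 fold change -0.54, SE 0.41, and -0.18 without control library 3) and Mmp16 (-0.21, SE 0.22, and -0.35 without that library), both membrane types, were the 2 with negative values.

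**Figure D5:**
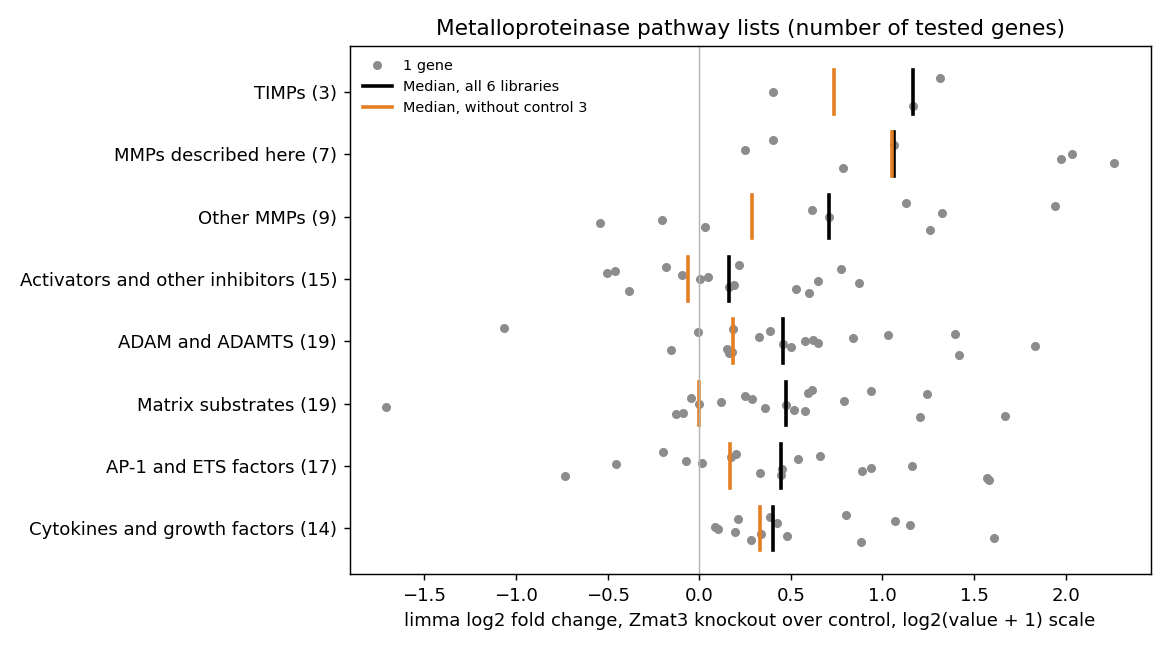
Limma log2 fold changes (x axis, Zmat3 knockout over control) of the tested genes of 8 lists around the metalloproteinases; each grey point is 1 gene, black bars are list medians over all 6 libraries and orange bars medians without control library 3. Most medians lie nearer to 0 without control library 3, that of matrix substrates at -0.0035.

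Genes that activate or restrain metalloproteinases by other routes were split. Of 20 genes in this list 15 were tested, 10 had positive and 5 negative log2 fold changes, and none was called by limma or DESeq2. The median was 0.16 and -0.06 without control library 3. Reck, a membrane-anchored inhibitor of Mmp9 and Mmp14, stood at 2338 ± 204 in knockout and 1602 ± 673 in control (SD, n = 3 each), with no overlap and a log2 fold change of 0.65 (SE 0.35), 0.23 without control library 3. Plaur, the receptor of urokinase, had 7548, 9979 and 10395 normalised counts in knockout libraries, all below the 10767, 10853 and 14872 of the controls, a log2 fold change of -0.38 (SE 0.19), and -0.23 without control library 3. Thbs1, a matrix protein that binds Mmp2 and Mmp9, had -0.50 (SE 0.45) and 0.02 without control library 3. Serpinb2, an inhibitor of urokinase, had 1.81, 397.4 and 31.5 normalised counts in knockout libraries and 11.1, 0 and 488.5 in controls, so its level followed no group.

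The related ADAM and ADAMTS proteases had a median log2 fold change of 0.46, and 0.19 without control library 3. Of 25 genes 19 were tested, 16 were positive and none was called by limma or DESeq2. Adam23, an adhesion protein without protease activity, had 6317, 5048 and 4836 normalised counts in knockout libraries, against 4027, 1778 and 477.9 in controls. Adam8 had 2579, 1964 and 2919.7 in knockout libraries, against 1447, 1575.5 and 341.0 in controls. In both the groups did not overlap, and control library 3 was far below the rest. Adam15 had a log2 fold change of -0.16 (SE 0.15), and -0.04 without control library 3. Adamts14, which trims collagen precursors, had 1846 ± 236 in knockout and 1877 ± 429 in control (SD, n = 3 each).

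Matrix proteins on which metalloproteinases act had 14 positive and 5 negative log2 fold changes among 19 tested of 24, with no call by limma or DESeq2. Their median of 0.47 was -0.0035 without control library 3. Col3a1, a fibrillar collagen, had 2987, 3512 and 3546 normalised counts in knockout libraries, against 2424, 2407 and 198.2 in controls. Col1a1 stood at 381 ± 98.2 in knockout and 199.1 ± 135 in control (SD, n = 3 each). Lama4, a laminin chain of basement membranes, had 247.6, 41.6 and 203.8 in knockout libraries, against 930.05, 101.0 and 795.3 in controls. Col4a1, the basement membrane collagen, had a log2 fold change of -0.13 (SE 0.12).

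Of 18 AP-1 and ETS factors 17 were tested, 13 were positive and 4 negative. Their median was 0.45, or 0.17 without control library 3. Over all genes DESeq2 called 0.891% in either direction, 61 genes higher and 68 lower in knockout. Of these factors it called 2, both higher in knockout, and limma called 0. Neither call held in every DESeq2 fit that left out 1 library. The adjusted p of Atf3 was 0.0658 without knockout library 2 and 0.093 without knockout library 3. That of Fosb was 0.416 and 0.412 without those libraries, 0.226 without control library 2 and 0.204 without control library 3. Atf3, a stress-induced AP-1 partner, had 2956, 4681 and 4248 normalised counts in knockout libraries, against 1575, 1665 and 1992 in controls (DESeq2 log2 fold change 1.19, adjusted p = 0.000544). Fosb had 1678, 4751 and 2836 in knockout libraries, against 1569, 833 and 659.6 in controls (DESeq2 log2 fold change 1.597, adjusted p = 0.0381). Fos had 5083, 12076 and 8014 in knockout libraries, against 4653, 2991 and 1313 in controls, with no overlap and no call. Fosl1, a Fos relative known as a target of Ras signalling, had 1543, 1503 and 1527 in knockout libraries, each below the 1724, 2045 and 4629 of the controls (limma log2 fold change -0.73, SE 0.36), and Ets1 had -0.46 (SE 0.19) with no overlap either. Control library 3 was the highest library for both, and without it the values were -0.30 for Fosl1 and -0.26 for Ets1.

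All 14 tested of 19 cytokines and growth factors known to induce these genes had positive log2 fold changes, and none was called by limma or DESeq2. The median was 0.40, or 0.33 without control library 3. Areg was not found under that symbol in the table. Ereg, a ligand of the EGF receptor, had 3049.9, 3111 and 4165 normalised counts in knockout libraries, against 2076, 2371 and 731.6 in controls, with no overlap. Pdgfb stood at 3102 ± 360 in knockout and 2574 ± 1960 in control (SD, n = 3 each), and its log2 fold change of 0.80 (SE 0.81) was -0.22 without control library 3.

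Medians of cell type marker lists also differed with control library 3, and their part in the values of the metalloproteinases was not tested. The median log2 fold change was 0.59 for 11 tested fibroblast markers and 0.12 without control library 3. For 9 epithelial markers it was 0.80 and 0.25, for 6 cartilage and bone markers 0.90 and 0.68, for 3 endothelial markers 0.59 and -0.03, and for 3 macrophage and leukocyte markers 1.47 and 0.51. Limma and DESeq2 called none of these markers. The summed level of the cartilage and bone list was 130222 to 222742 in knockout libraries and 22842 to 108713 in controls, mostly Spp1, the matrix protein osteopontin. Of the 6 tested genes of that list, 4 had positive and 2 negative log2 fold changes. The negative ones were Sox9 (limma -0.14) and Runx2 (-0.015), whose groups overlapped, and Ibsp was at 0 in every library. Krt18, an epithelial keratin whose groups overlapped, had 216.9, 91.3 and 452.4 normalised counts in knockout libraries, against 4463, 106.9 and 8675 in controls.

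The patterns of single genes over the 6 libraries fell into different kinds. Among the 10 genes, Timp3 and Mmp9 were most alike (Pearson r = 0.97 on log2 values), followed by Mmp14 and Mmp11 (0.97) and Mmp3 and Timp3 (0.96). Mmp10 and Mmp13 were most like each other (0.95). Timp1 was less tied to the rest, its nearest being Timp2 (0.81), and Mmp2 least of all, its nearest being Timp1 (0.67). Over all tested genes with a mean of at least 100, the most similar to Timp1 was Nudt4 (0.996), to Timp3 Armcx3 (0.9997), to Mmp9 Macrod1 (0.9996), to Mmp14 Ckap4 (0.999) and to Mmp10 Srgap3 (0.994). For Timp2 it was Zfp979 (0.998), for Mmp3 Cpe (0.999), for Mmp11 Scml4 (0.9999) and for Mmp13 Twist1 (0.98), while for Mmp2 it was a row with no gene name. With 6 libraries such values come easily: 1073 genes had an r over 0.95 with Timp3 and 30 with Timp1.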

How the data were processed

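Total RNA of 6 cultured fibroblast samples was sequenced, after RNeasy extraction and Illumina library preparation per the labels' protocols. Per the submitters' processing notes the tools were STAR and DESeq2 and the build was mm10. No source used here gives the annotation, read counter, strand setting or versions. The values deposited by the authors are a signal, in the form of counts divided by 1 size factor per library: 100% of values were whole multiples of the value of 1 read (within 0.001), so whole reads were recovered. Rows with a gene ID but no symbol, with 1.90% to 2.23% of all reads, stayed in the tests.

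Genes were kept by filterByExpr (at least 10 in 3 libraries). Limma 3.58.1 (trend, robust, R 4.3.3) was run on log2(value + 1) over 14777 genes, as a two-sided test at a Benjamini-Hochberg FDR of 0.05. The added 1 shrinks fold changes of low genes. Even so, the limma values of the low genes Mmp3, Mmp9 and Mmp13 (2.26, 1.97 and 1.06) were above their DESeq2 values (1.72, 1.56 and -0.22). Alternatives on the recovered reads used DESeq2 1.42.0 and edgeR 4.0.16. Each test was tried on simulated reads first. The members, lists and tests were chosen with earlier results of these data known. From each pathway list the text names the 2 largest positive and 2 largest negative log2 fold changes among genes with a mean of at least 100, and genes DESeq2 called, and for each member the gene most like it by Pearson correlation. Markers and other genes named beyond that rule were chosen after their values were seen. The labels do not say whether libraries came from separate starting cultures, so each test judges a difference by these libraries alone.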

Additional observations from a re-analysis of the deposited data

How the results depend on the processing

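Limma called 0 genes under each other normalization, filter and pseudocount and with the replicate block, and none of the 10 genes in any limma fit. Over all genes DESeq2 called 129, and limma 0 to 5 with 1 library left out (5 without control library 3). DESeq2 with 1 library left out called 24 to 2138 genes (711 without control library 3, and 61, 24 and 27 without knockout library 1, 2 and 3) and 0 to 6 of the 10 genes, with 6 only without control library 1, 1 without control library 3 and 0 otherwise. Its log2 fold changes then ran from 0.91 to 1.499 for Timp1, 0.71 to 1.54 for Timp3, 1.21 to 2.75 for Mmp3, 1.08 to 2.34 for Mmp9, 0.11 to 3.38 for Mmp10 and -0.77 to 2.40 for Mmp13. Mmp13 was the only one of the 10 genes to change direction, at -0.22 by DESeq2 and -0.23 by edgeR, which compare means. DESeq2 gave it 0.046 without knockout library 1 and 2.40 without control library 1. Over the other lists DESeq2 called 2 genes, and 0 to 23 with 1 library left out. The 23 came without control library 1, where it called 2138 of 14432 genes over the whole table. The ratio of Mmp14 to Timp1 differed by -1.09 to -0.33, that of Mmp2 to Timp2 by -0.39 to 0.95 and that of Mmp14 to Timp2 by -0.28 to 0.15 (-0.09 without knockout library 2) with 1 library left out. Whether the replicate numbers pair the libraries was not settled. Same-numbered libraries had deviations correlated at 0.26, 0.20 and -0.02, and the other pairs of a control and a knockout library at -0.32 to 0.22. A fit with the replicate block called 0 genes, as did the fit without it. The log2 fold change of Timp1 was 1.17 in both, with an SE of 0.21 with the block and 0.33 without. Control library 3 had 5 reads of Mmp3, 6 of Mmp13 and 10 of Mmp9, which limits the precision of these values.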
